A study of Mus musculus with 8 samples.

Results

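The genes of cyclic AMP (cAMP) signalling were examined in whole mouse kidneys, mutant and wild-type. They were taken by symbol and comprise the adenylyl cyclases (*Adcy*), the phosphodiesterases (*Pde*), the catalytic and regulatory subunits of protein kinase A (PKA; *Prkaca*, *Prkacb*, *Prkar1a*, *Prkar1b*, *Prkar2a*, *Prkar2b*), the A-kinase anchoring proteins (*Akap*), the PKA inhibitors *Pkia*, *Pkib* and *Pkig*, the vasopressin receptors *Avpr1a* and *Avpr2*, the prostaglandin E2 receptors *Ptger2*, *Ptger3* and *Ptger4*, and the transcription factor *Crem*. The array annotation holds 61 of these genes among 16593. All mice were at postnatal day 10 (P10), with 4 *Pkd1*V/V kidneys and 4 kidneys of wild-type littermates, 1 kidney per array. The mutants carry a hypomorphic *Pkd1* allele on both chromosomes and have cystic kidneys at this age, and the kidneys came from 4 mice of each genotype. *Ptger1* was not analysed here. The labels name no treatment. RNA came from the pellet of the kidney homogenate, so that each array holds every cell type of the organ.

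Cyclic AMP is made from ATP by adenylyl cyclases, which receptors coupled to the stimulatory G protein switch on and receptors coupled to the inhibitory G protein switch off. It is broken down by phosphodiesterases and acts mainly by binding the regulatory subunits of PKA, which then release active catalytic subunits. Anchoring proteins tether PKA close to its substrates, and in the nucleus PKA phosphorylates transcription factors of the CREB family, which bind the cAMP response element (CRE). In the collecting duct, vasopressin acts through this route to bring water channels to the cell surface, and in polycystic kidneys cAMP is known for promoting fluid secretion into cysts and the growth of cyst epithelium.

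A probe was counted as detected on an array when its detection *P*, the chance that a negative control bead is as bright, was under 0.05, and a gene was tested when a probe was detected on at least 3 of the 8 arrays. Of the 61 genes, 39 were tested. Another 18 were detected on no array, and *Prkar2b*, *Pde5a*, *Pde1c* and *Pde6a* were detected on 1 or 2. Values are signals after quantile normalization, on a linear scale without a unit, and log2 changes (with ± for the standard error, SE, where given) are differences in log2 of *Pkd1*V/V over wild-type kidneys after adding 16 to each signal, which understates the change of dim probes. A gene was called at an adjusted *P* under 0.1 from limma over all 9833 genes tested. Signals of different probes have no common scale, so levels of different genes are not compared.

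Most tested genes of the pathway were not called, and the changes that passed were small. Among the 39 tested genes, 3 were called higher in *Pkd1*V/V kidneys (*Akap12*, *Pde4d* and *Adcy7*) and 5 lower (*Ptger3*, *Adcy6*, *Adcy9*, *Akap1* and *Pde7a*). That was 20.5% of the tested members, while 32.6% of all 9833 tested genes were called. By direction, 7.69% of members were higher against 16.8% of all genes, and 12.8% were lower against 15.8%. The median log2 fold change was -0.08 over the members and 0.02 over all tested genes, and the median size of the change without regard to sign was 0.28 and 0.26. Changes of at least 1.5-fold past the threshold were found for 3 members, or 7.69%, against 19.2% of all genes. None of the called members reached 2-fold, while 8.82% of all genes did. The genotypes did not overlap in 5 members, or 12.8%, against 29.2% of all genes, with the mutants above in 3 (15.4% of all genes) and below in 2 (13.8%). Without adjustment, 9 members (23.1%) had a *P* under 0.05 in the same limma fit. The share of all genes at that cut was not counted, so this number says nothing about an excess. For 34 of the 39 members the 95% interval of the log2 fold change lay within 1 of 0, and for 7 it lay within 0.5.

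**Figure D1:**
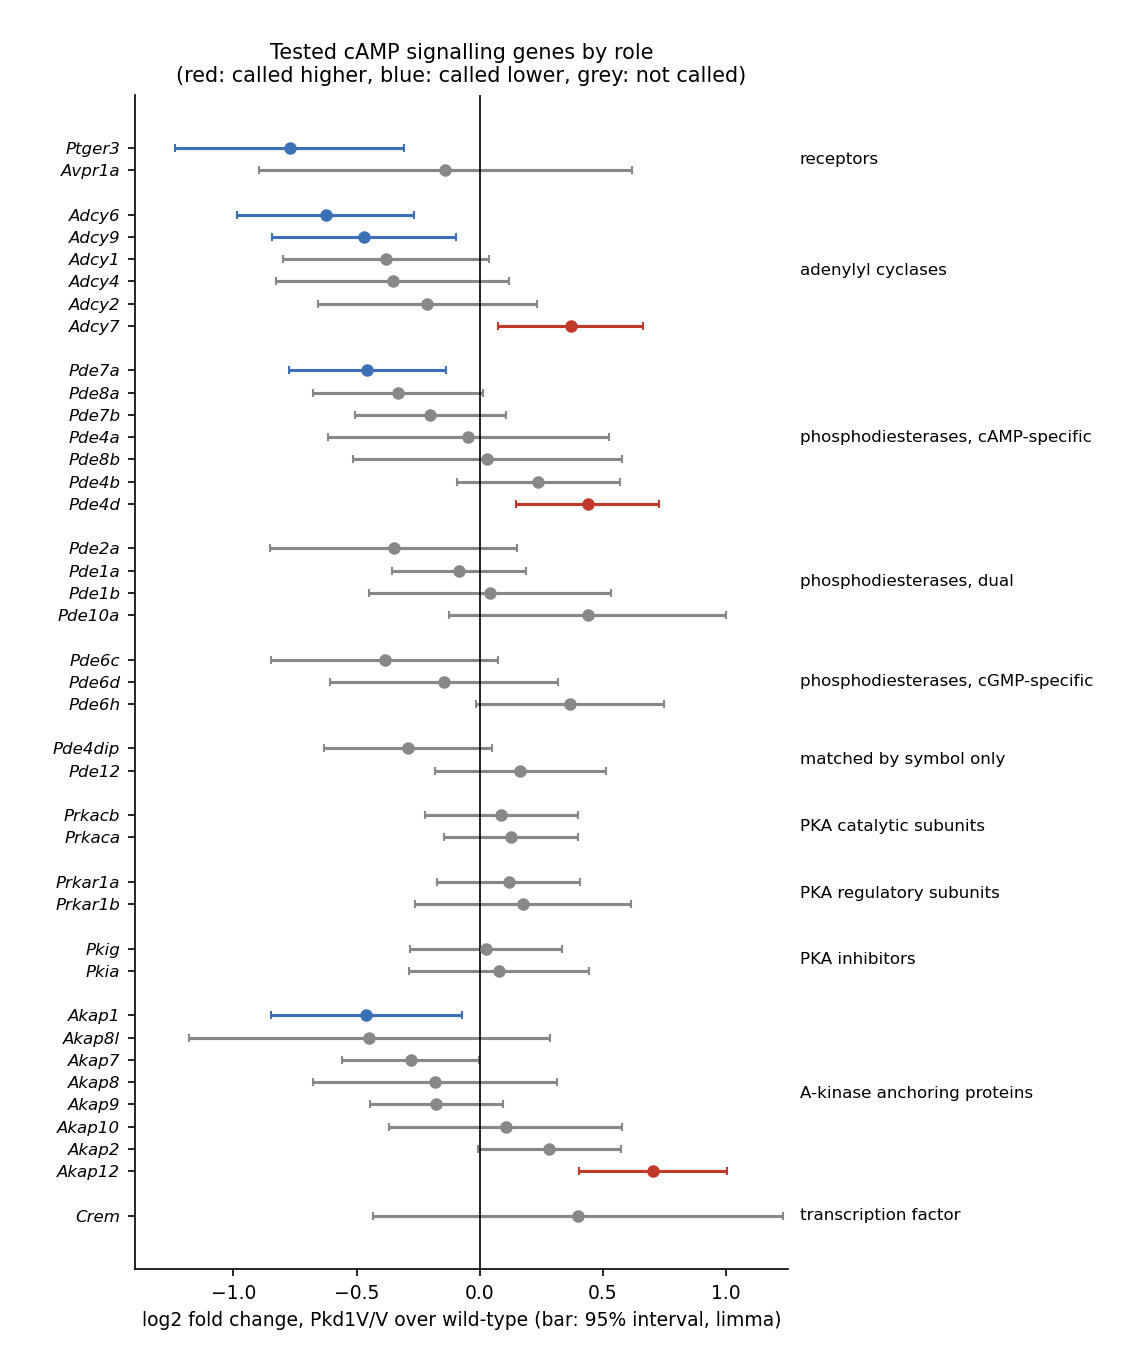
Log2 fold change (horizontal axis, *Pkd1*V/V over wild-type, signals plus 16) of the 39 tested genes, grouped by role, with bars for the 95% interval from limma and 4 kidneys per genotype. Red points (3) were called higher, blue points (5) lower and grey points (31) not called. The 4 tested PKA subunits and 2 tested PKA inhibitors lie within 0.2 of 0, and the points farthest from 0 are *Ptger3* on the left and *Akap12* on the right.

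The whole kidneys differed in the transcripts of their cell types, and these values stand beside every result that follows. In bulk samples, fewer cells of a type and less RNA per cell cannot be told apart. Of the tubular markers, 11 of 11 tested proximal tubule genes were lower in *Pkd1*V/V kidneys (summed signal 10897 to 20585 against 44115 to 52279), 5 of 6 thick ascending limb genes were lower (8042 to 12925 against 22591 to 26934), and 2 of 3 distal convoluted tubule genes were lower (1048 to 1933 against 4661 to 5787). Principal cell genes of the collecting duct moved the other way, with 6 of 9 higher and 0 lower (10463 to 16877 against 8135 to 8575). Their defining markers were *Aqp2*, *Aqp3*, *Aqp4* and *Scnn1b*. Of these, *Aqp2* (log2 change 0.11, adjusted *P* = 0.853) and *Aqp3* (0.17, adjusted *P* = 0.786), both water channels, were among the 3 genes of the list not called. Of the other markers, 7 of 8 endothelial genes were lower (4474 to 5747 against 9261 to 9940), 8 of 9 smooth muscle and pericyte genes were higher and 1 lower (19331 to 24108 against 6320 to 9794), and 10 of 10 macrophage and leukocyte genes were higher (4757 to 19175 against 1809 to 2270). The defining markers *Calb1* (distal convoluted tubule), *Kdr* (endothelium) and *Cnn1* (smooth muscle) were detected on no array. The same held for *Ptprc*, *Itgam*, *Cd3e* and *Ms4a1* of the macrophage and leukocyte list. In 1 control, wild-type replicate 4, liver transcripts were far above those of the other kidneys (68060 against 1719 to 10421) and skeletal muscle transcripts were as well (1025 against 30.6 to 78.6), and *Pkd1*V/V replicate 1 stood out with adrenal cortex transcripts (522 against 26.0 to 48.2) and with the highest leukocyte sum. Of these lists, 4 of 8 liver, 1 of 6 skeletal muscle and 1 of 7 adrenal cortex genes were tested. *Alb* and *Fgb* (liver), *Ckm*, *Myh4* and *Mb* (skeletal muscle) and *Star*, *Nr5a1* and *Hsd3b1* (adrenal cortex) were detected on no array. The signal of *Pkd1* itself did not pass the threshold (log2 change -0.20 ± 0.22, SE, adjusted *P* = 0.545), and since the allele is hypomorphic this signal does not check the genotype. The part of cell composition in the results below was not tested.

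Among the receptors, *Ptger3* was lower in the mutants and the vasopressin V2 receptor gave no usable signal. *Ptger3* encodes EP3, a prostaglandin E2 receptor that couples to the inhibitory G protein and opposes vasopressin in the tubule. Its signal was 150.2, 94.6, 117.5 and 116.5 in the 4 *Pkd1*V/V kidneys and 286.7, 259.7, 184.1 and 149.8 in the wild-type kidneys. The mutants were lower except that *Pkd1*V/V replicate 1 and wild-type replicate 4 had nearly the same signal. On the log2 scale the change was -0.77 ± 0.21 (SE, adjusted *P* = 0.0231), or 1.71-fold lower, and the call held when each kidney was left out in turn (-0.93 to -0.64).

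*Avpr2*, which encodes the V2 receptor of principal cells and couples to the stimulatory G protein, was detected on none of the 8 arrays. Its signal was 0, 15.9, 17.9 and 14.8 in *Pkd1*V/V kidneys and 8.09, 4.42, 0 and 5.99 in wild-type kidneys, where the weakest detected signal of an array lay between 18.6 and 23.0. It was therefore not tested, and a difference was not detectable with this probe. *Ptger2* and *Ptger4*, the stimulatory prostaglandin E2 receptors EP2 and EP4, were also detected on no array. *Avpr1a*, the V1a receptor that signals through calcium, had signals of 856, 389, 258 and 306 in *Pkd1*V/V kidneys and 322, 440.3, 465 and 604 in wild-type kidneys. *Pkd1*V/V replicate 1 was the highest of all and the other 3 mutants lay in or below the control range. The log2 fold change was -0.14, with a 95% interval from -0.90 to 0.62, and its sign depended on single kidneys (0.06 without *Pkd1*V/V replicate 3 and 0.00085 without wild-type replicate 4).

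Of 9 adenylyl cyclases on the array, 6 were tested, 2 were called lower and 1 higher. *Adcy6*, a cyclase inhibited by calcium that is present in tubular epithelium, had signals of 296, 461, 484 and 403 in *Pkd1*V/V kidneys and 571, 705, 621 and 639 in wild-type kidneys. Every mutant was below every control. This was a log2 change of -0.63 ± 0.16 (SE, adjusted *P* = 0.0188), or 1.54-fold lower, and the call held without each kidney in turn (-0.71 to -0.48). *Adcy9*, a widely expressed cyclase that responds poorly to forskolin, had signals of 62.2, 53.8, 47.4 and 49.7 against 62.1, 103.6, 63.7 and 96.8. Here wild-type replicates 2 and 4 were high, and the other controls lay close to the highest mutant. The log2 change was -0.47 ± 0.17 (SE, adjusted *P* = 0.0670). *Adcy7*, a cyclase prominent in blood and immune cells, went the other way with 86.1, 59.8, 78.4 and 76.2 against 49.6, 52.9, 65.3 and 49.8. The highest control lay above the lowest mutant, and the log2 change was 0.37 ± 0.13 (SE, adjusted *P* = 0.0677).

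The calls of *Adcy9* and *Adcy7* were lost in most of the fits that left out 1 kidney, with no change of sign. Among the 8 fits without 1 kidney, that of *Adcy9* held only with 1 of 3 kidneys left out (*Pkd1*V/V replicate 1, or replicate 1 or 3 of the controls), and rose to an adjusted *P* of 0.159 without wild-type replicate 2. That of *Adcy7* held only with replicate 2 of the mutants or replicate 3 of the controls left out, with an adjusted *P* of up to 0.145 without the others. *Adcy4*, a cyclase stimulated by G protein subunits, had signals of 281, 439, 269 and 241 against 278, 466, 420.1 and 411, with a log2 fold change of -0.35 (95% interval -0.83 to 0.12). It passed when *Pkd1*V/V replicate 2 was left out (-0.53, adjusted *P* = 0.0691) and with trend and array weights (-0.50, adjusted *P* = 0.0592). *Adcy1* and *Adcy2* were not called either (-0.38 and -0.21), although *Adcy1* passed without *Pkd1*V/V replicate 4 (adjusted *P* = 0.0520). Of the 6 tested cyclases, 5 had a negative log2 fold change and 1 a positive one. *Adcy5*, *Adcy8* and *Adcy10* were detected on no array.

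**Figure D2:**
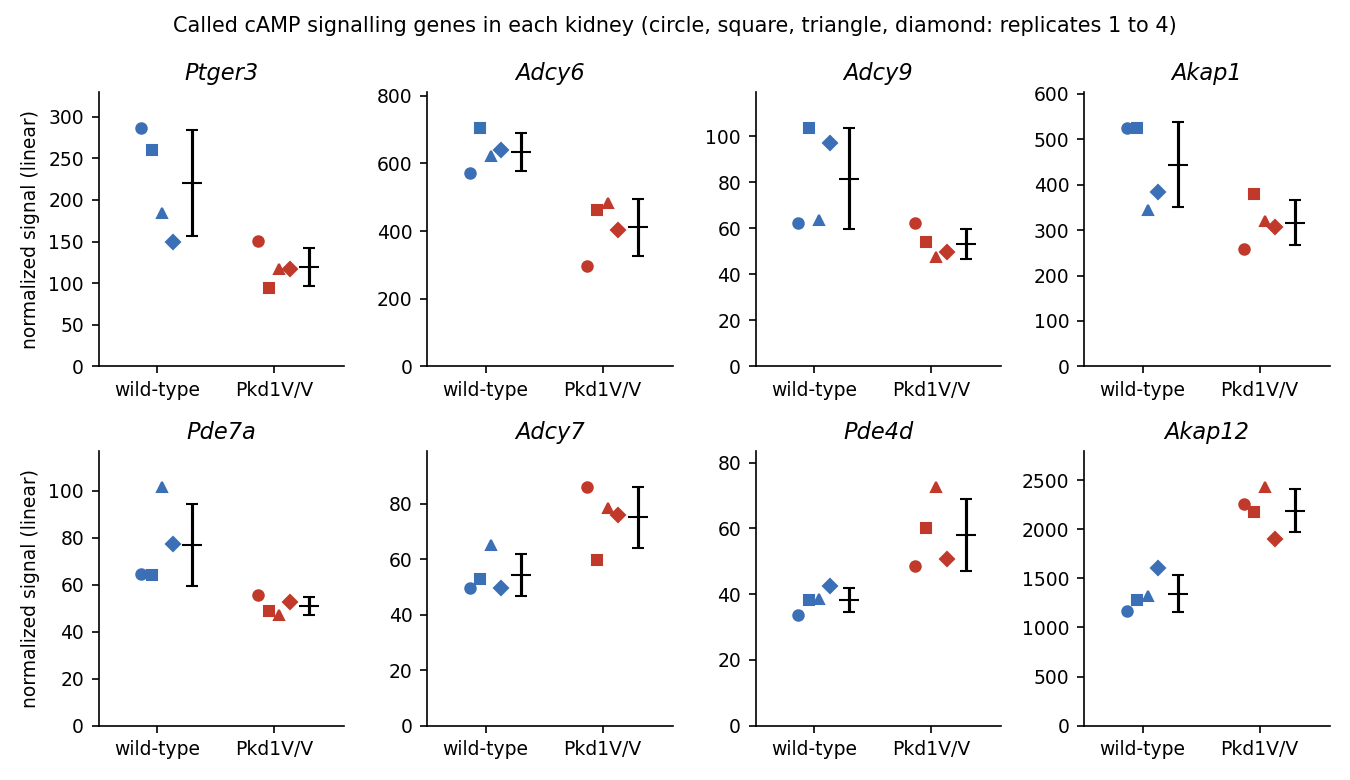
Normalized signal (vertical axis, linear, from 0) of the 8 called genes in each kidney, wild-type in blue and *Pkd1*V/V in red, with black bars for the mean and SD of 4 kidneys. *Adcy6*, *Pde7a*, *Pde4d* and *Akap12* show no overlap between the genotypes, while *Ptger3*, *Adcy9*, *Akap1* and *Adcy7* do.

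The promoters of 48 of the 61 genes were found in RefSeq (GRCm38.p6) as 92 windows, each reaching from 250 bases before a transcript start to 50 after it. They were read for the element of the pathway itself, the full CRE (TGACGTCA) and its half-site (TGACG, or CGTCA on the other strand), where every full element also holds half-sites. A half-site was found in 19 of the 92 windows, or 20.7%, against 20.8% of all 32851 promoters. The full element was found in 2 windows, or 2.17%, against 1.79% of all promoters. Both are windows of *Prkar1a* that overlap, so the same element is counted in both. By gene it was found in 1 of 48 members, against 549 of 27025 genes. The called genes were matched for 5 of 8 (*Adcy7*, *Adcy9*, *Akap1*, *Pde4d* and *Ptger3*), and the half-site occurred in 1 window each of *Adcy7*, called higher, and *Adcy9*, called lower. Those windows and 1 of *Prkar1a*, which holds both a separate half-site and the full element, are shown because they belong to the called genes with a match and to the gene with the full element, with the matches in capitals. They lie at chr8:88282742-88283041 on the plus strand, chr16:4420449-4420748 on the minus strand and chr11:109650612-109650911 on the plus strand, and each is written 5′ to 3′ on the strand of its gene.
Adcy7: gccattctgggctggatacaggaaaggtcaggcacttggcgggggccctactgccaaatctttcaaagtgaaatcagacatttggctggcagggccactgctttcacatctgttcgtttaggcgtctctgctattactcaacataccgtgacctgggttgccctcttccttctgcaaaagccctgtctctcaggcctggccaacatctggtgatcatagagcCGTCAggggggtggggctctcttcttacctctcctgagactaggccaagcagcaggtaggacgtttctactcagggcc
Adcy9: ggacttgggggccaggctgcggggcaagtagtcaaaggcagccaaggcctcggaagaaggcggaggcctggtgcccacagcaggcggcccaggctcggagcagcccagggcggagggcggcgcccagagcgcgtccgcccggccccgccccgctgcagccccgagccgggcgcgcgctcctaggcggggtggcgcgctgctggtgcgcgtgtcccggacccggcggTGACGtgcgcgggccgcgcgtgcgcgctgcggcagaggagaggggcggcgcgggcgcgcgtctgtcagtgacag
Prkar1a: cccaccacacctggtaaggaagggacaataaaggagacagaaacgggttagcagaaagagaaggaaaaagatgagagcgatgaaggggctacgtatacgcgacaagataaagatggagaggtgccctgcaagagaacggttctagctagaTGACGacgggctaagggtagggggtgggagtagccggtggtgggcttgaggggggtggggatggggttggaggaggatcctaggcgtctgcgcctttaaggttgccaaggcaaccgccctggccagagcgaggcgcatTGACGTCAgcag
A match of letters is a description only and says nothing about binding in these kidneys.

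The phosphodiesterases that act on cAMP alone held 1 call in each direction among 7 tested genes. *Pde4d*, a member of the rolipram-sensitive family, had signals of 48.5, 60.0, 72.6 and 50.6 in *Pkd1*V/V kidneys and 33.6, 38.2, 38.6 and 42.5 in wild-type kidneys. All mutants were above all controls, although every kidney was within a few times the weakest detectable signal. On the log2 scale the change was 0.44 ± 0.13 (SE, adjusted *P* = 0.0351), or 1.35-fold. *Pde7a*, a high-affinity enzyme that rolipram does not block, had 55.5, 48.8, 47.1 and 52.6 against 64.7, 64.3, 101.6 and 77.4. All mutants were below all controls, with wild-type replicate 3 the highest. This was a log2 change of -0.46 ± 0.14 (SE, adjusted *P* = 0.0418), or 1.37-fold lower. Both calls held when each kidney was left out in turn (0.34 to 0.50 for *Pde4d*, -0.52 to -0.34 for *Pde7a*).

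*Pde8a*, another high-affinity cAMP enzyme, had signals of 438, 477, 652 and 521 against 795, 578, 617 and 642, with a log2 fold change of -0.33 (adjusted *P* = 0.148). *Pkd1*V/V replicate 3 lay among the controls, and without it the change was -0.44 (adjusted *P* = 0.0647). *Pde4a*, *Pde4b*, *Pde7b* and *Pde8b* were not called, with log2 fold changes from -0.20 to 0.24, and *Pde4c* was detected on no array.

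None of the 4 tested phosphodiesterases that act on both cAMP and cGMP was called. *Pde1a*, a calcium- and calmodulin-stimulated enzyme, was nearly level, with 355, 399, 362 and 398 in *Pkd1*V/V kidneys and 413, 473, 379 and 350.4 in wild-type kidneys. Its log2 fold change was -0.08, with a 95% interval from -0.36 to 0.19, so that a fall or rise of more than 0.36 lay outside that interval. *Pde1b*, *Pde2a* and *Pde10a* had log2 fold changes from -0.35 to 0.44. *Pde3a* and *Pde3b*, which cGMP inhibits, were detected on no array, and *Pde1c* on 2.

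Of the 8 genes that act on cGMP or were placed with them, 3 were tested and 0 were called. *Pde6d*, which encodes a carrier of prenylated proteins into cilia and is a phosphodiesterase subunit by name, had 341, 317, 519 and 532 against 534, 443, 541 and 356, and a log2 fold change of -0.15 (95% interval -0.61 to 0.32). *Pde6c* (-0.39) passed without wild-type replicate 2 (adjusted *P* = 0.0746), and *Pde6h* (0.37) passed without *Pkd1*V/V replicate 2 (adjusted *P* = 0.0350). Both are genes of the photoreceptor enzyme and were close to the limit of detection here. *Pde6b*, *Pde6g* and *Pde9a* were detected on no array, *Pde5a* on 1 and *Pde6a* on 2. The rule by symbol also took up *Pde12*, a mitochondrial enzyme that degrades RNA-like molecules, and *Pde4dip* (myomegalin), a protein of the Golgi and centrosome. Neither was called, with log2 fold changes of 0.16 and -0.29.

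None of the 4 tested PKA subunits was called. *Prkaca*, the ubiquitous catalytic subunit, had 954, 943, 913 and 1083 in *Pkd1*V/V kidneys and 1033, 914, 826 and 796 in wild-type kidneys. *Prkacb*, the second catalytic subunit, had 3698, 4481, 3727 and 3271 against 3014, 4069.6, 3544 and 3633. In both genes the ranges overlapped widely. Their log2 fold changes were 0.13 (95% interval -0.15 to 0.40, adjusted *P* = 0.491) and 0.09 (-0.22 to 0.40, adjusted *P* = 0.685). *Prkar1a*, the type I regulatory subunit whose promoter is shown above, had 4799, 5071, 4021 and 4323 against 3775, 4233, 3894 and 4909. Its log2 fold change was 0.12 (-0.17 to 0.41, adjusted *P* = 0.554), and wild-type replicate 4 was the second highest kidney. These intervals do not show that the levels were equal. *Prkar1b* was not called (0.18), *Prkar2b* was detected on 1 array and *Prkar2a* on none.

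The PKA inhibitors bind the free catalytic subunit and carry it out of the nucleus. By its brightest probe, *Pkig* was not called, with 991, 1073, 987 and 885 in *Pkd1*V/V kidneys and 1190.5, 1002, 833 and 864 in wild-type kidneys. The log2 fold change was 0.03 (95% interval -0.28 to 0.34, adjusted *P* = 0.909). *Pkia* had a log2 fold change of 0.08 (adjusted *P* = 0.769), and *Pkib* was detected on no array.

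The anchoring proteins held the largest rise among the tested members. *Akap12* (gravin), a scaffold for PKA, protein kinase C and receptors at the plasma membrane, had signals of 2254, 2178, 2429.7 and 1896 in *Pkd1*V/V kidneys and 1167, 1275, 1317 and 1607 in wild-type kidneys. All mutants were above all controls. The log2 change was 0.70 ± 0.13 (SE, adjusted *P* = 0.00448), or 1.63-fold, and it ranged from 0.64 to 0.80 when each kidney was left out. *Akap1*, which anchors PKA at the outer mitochondrial membrane, had 258, 379, 319.6 and 307 against 524, 525, 344 and 384. Wild-type replicates 1 and 2 were well above the mutants and the other 2 controls overlapped them. On the log2 scale the change was -0.46 ± 0.17 (SE, adjusted *P* = 0.0826). That call held only with replicate 2 of the mutants or replicate 3 or 4 of the controls left out, and reached an adjusted *P* of 0.189 without wild-type replicate 2. It was also lost with median scaling (adjusted *P* = 0.165) and with the mean of the 3 detected *Akap1* probes (adjusted *P* = 0.170).

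*Akap9*, a large scaffold of the centrosome and Golgi, had 1004, 1056, 1121 and 925 against 1036, 1313, 1085 and 1222, with a log2 fold change of -0.18 (adjusted *P* = 0.326). *Akap2* had no overlap, with all mutants higher, yet its change of 0.28 was not called (adjusted *P* = 0.143). It was singled out after its values were seen. *Akap7*, *Akap8*, *Akap8l* and *Akap10* were not called, with log2 fold changes from -0.45 to 0.11. *Akap3*, *Akap4*, *Akap6* and *Akap14* were detected on no array.

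*Crem*, a CREB family factor whose short form ICER is itself induced by cAMP and represses CRE-driven genes, varied more within each genotype than between them. Its signal was 18.7, 80.2, 88.1 and 61.6 in *Pkd1*V/V kidneys and 38.1, 73.0, 37.1 and 19.0 in wild-type kidneys. *Pkd1*V/V replicate 1 and wild-type replicate 4 were the lowest, and both were close to the limit of detection. The log2 change was 0.40 ± 0.37 (SE, adjusted *P* = 0.478), and it was 0.75 without *Pkd1*V/V replicate 1 (adjusted *P* = 0.0868).

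Several genes were measured by more than 1 probe, and in 3 of them a dimmer probe moved while the brightest did not. Among 10 members with several detected probes, 9 had all probes on the same side of 0 and only *Pde6d* had both signs. Of the called genes, *Adcy6* had 1 detected probe of 3, and *Ptger3*, *Pde4d* and *Adcy7* had 1 of 2 each. *Akap12*, *Adcy9* and *Pde7a* had only 1 probe on the array, so all these calls rest on 1 probe each. Over probes, 29.9% of 14221 detected probes were called. The 3 probes that follow were singled out after their values were seen, and all 3 calls held when each kidney was left out. A *Pkig* probe designed on another transcript than the brightest had signals of 109, 110.4, 101 and 97.0 in *Pkd1*V/V kidneys and 57.1, 41.2, 39.1 and 22.5 in wild-type kidneys. Every mutant was well above every control on this probe, with a log2 change of 1.14 ± 0.18 (SE, adjusted *P* = 0.00198), while the other 2 *Pkig* probes gave 0.03 and 0.25. A *Pde4dip* probe, also designed on another transcript, had 76.7, 83.5, 78.5 and 95.4 against 157, 154, 138 and 222. Every mutant was lower, with a log2 change of -0.87 ± 0.15 (SE, adjusted *P* = 0.00317). One more *Akap9* probe had 174, 206, 174 and 181 against 209, 272, 264 and 266, with a log2 change of -0.42 ± 0.12 (SE, adjusted *P* = 0.0355). It was designed on the same transcript as the brighter *Akap9* probes, which gave -0.18 and -0.08. With the mean of all detected probes, *Pkig* (0.47, adjusted *P* = 0.0230) and *Pde4dip* (-0.58, adjusted *P* = 0.00703) would be called.

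**Figure D3:**
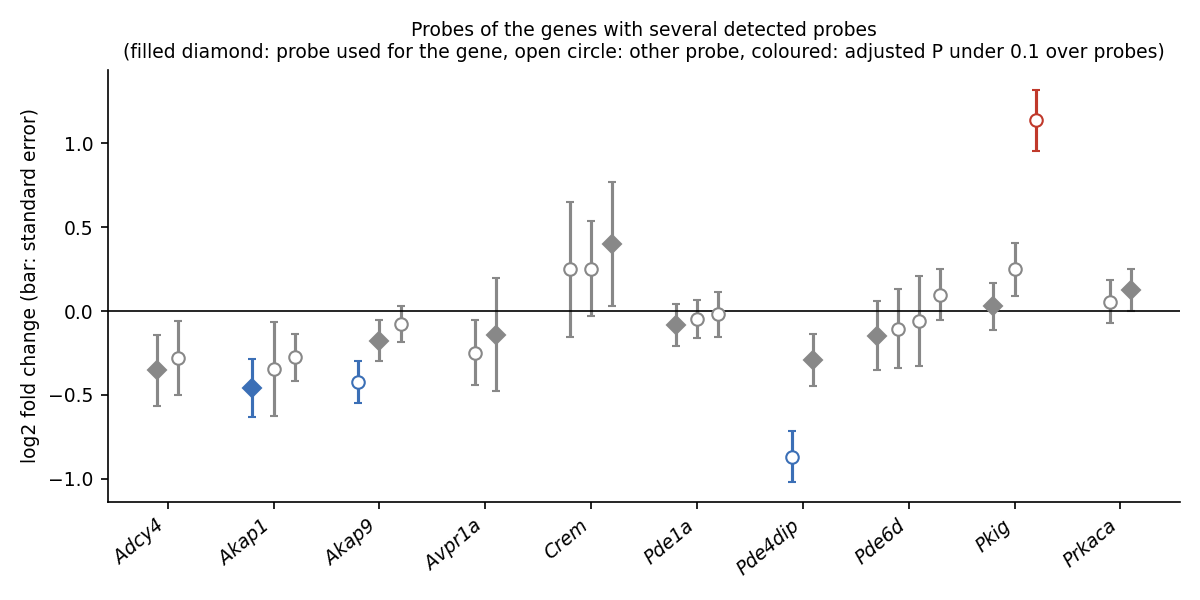
Log2 fold change (vertical axis, *Pkd1*V/V over wild-type, bars for the standard error from limma) of each detected probe of the 10 genes with several. Filled diamonds are the brightest probe, used for the gene, and open circles the others, with red and blue for probes called higher and lower. The called open circles are those of *Pkig* (1.14), *Pde4dip* (-0.87) and *Akap9* (-0.42).

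The genes around these members were read from lists of the same pathway, with 69 tested genes, of which 14 were higher and 11 lower, where 16.8% of all tested genes were higher and 15.8% lower. The counts of each list are a description to be read against these shares. Of 16 G protein subunits, 5 were higher and 0 lower (median log2 fold change 0.13). Among the higher ones, *Gnal* passed the detection filter through the mutants alone. It was detected in 3 of them and in 0 wild-type kidneys (mean signal 25.65 against 14.95). The inhibitory alpha subunit *Gnai2* was also higher (0.41, adjusted *P* = 0.0347), while the stimulatory alpha subunit *Gnas* was not called (-0.19, adjusted *P* = 0.552). *Gnb1*, a beta subunit, had 1364, 946, 1216 and 1066 in *Pkd1*V/V kidneys and 655, 552, 711 and 574 in wild-type kidneys, with no overlap. Its log2 fold change was 0.86 (adjusted *P* = 0.00241), and that of the gamma subunit *Gng10* was 0.68 (adjusted *P* = 0.0217). Of 8 other receptors that couple to stimulatory or inhibitory G proteins in the kidney, 0 were higher and 4 lower (median -0.58). *Pth1r*, the parathyroid hormone receptor of the proximal tubule, had 458, 550.4, 475 and 447 against 981, 1271, 850.1 and 957. All mutants were below all controls, with a log2 fold change of -1.04 (adjusted *P* = 0.000912), and the glucagon receptor *Gcgr* changed by -1.16 (adjusted *P* = 0.0127). *Gcgr* was detected in all 4 controls but in only 2 mutants, so the size of its change rests partly on undetected signals. It was highest in wild-type replicate 4, the kidney with liver transcripts (136 against 45.0 to 67.7 in the other controls), and its change was -0.88 without that kidney (adjusted *P* = 0.0103). *Casr* (-0.67, adjusted *P* = 0.0136) and *Ednrb* (-0.64, adjusted *P* = 0.0181) were the other lower receptors. Beside these, the 11 proximal tubule markers were lower, with a median of -1.57. Of the other lists, 5 of 6 thick ascending limb and 7 of 8 endothelial markers were lower, while 6 of 9 principal cell markers were higher.

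Of 6 genes of receptor desensitization, *Arrb2* (beta-arrestin 2; 0.96, adjusted *P* = 0.0136) and *Rgs4* (0.87, adjusted *P* = 0.0111) were higher and *Rgs5*, a pericyte gene, lower (-0.52, adjusted *P* = 0.0805). *Arrb2* was highest in *Pkd1*V/V replicate 1 (563, against 242 to 296 in the other mutants), the kidney with the highest leukocyte sum. Of 2 other tested cAMP sensors and effectors, the small GTPase *Rap1b* was higher (0.39, adjusted *P* = 0.0602). Of 7 genes of anchoring partners, *Map2* (0.66, adjusted *P* = 0.00787) and *Rab32* (0.53, adjusted *P* = 0.0351), both PKA-binding proteins, were higher and 0 were lower. Of 5 genes of prostaglandin synthesis and breakdown, *Ptges3* was higher (0.34, adjusted *P* = 0.0566) and *Hpgd*, which inactivates prostaglandin E2, lower (-1.47, adjusted *P* = 0.0159). *Rgs5*, *Rap1b* and *Ptges3* did not keep their calls without single kidneys. *Rgs5* kept its call only with mutant replicate 3 or 4 or control replicate 4 left out (adjusted *P* up to 0.198), *Rap1b* only with mutant replicate 2 or 3 or control replicate 2 left out (up to 0.142), and *Ptges3* only with mutant replicate 4 or control replicate 1 or 2 left out (up to 0.147).

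Of 12 genes of the CREB family and its coactivators, 1 was higher and 2 were lower. Both lower genes passed the detection filter through the wild-type kidneys alone. Among genes of this list detected on all 8 arrays, 0 were higher and 0 lower. *Creb1*, the prototype factor that PKA phosphorylates, was read by its brightest probe. That probe was detected in all 4 wild-type kidneys (26.4, 34.2, 24.9 and 52.9) and in 0 of the *Pkd1*V/V kidneys (10.7, 19.1, 12.4 and 10.9). Against the weakest detectable signal of each array its signal was at least 1.56-fold lower in the mutants. The limma call (-0.77, adjusted *P* = 0.0126) used the undetected signals and does not test that bound. With the mean of the gene's detected probes the log2 fold change was -0.08 (adjusted *P* = 0.766), so the fall was not shared by these probes as a set. *Atf1* was detected in 3 wild-type kidneys and 0 mutants and was at least 1.08-fold lower by the same bound. Its limma call (adjusted *P* = 0.0792) likewise does not test that bound. Among the fits without 1 kidney, this call held only with mutant replicate 4 or control replicate 2 left out (adjusted *P* up to 0.184). *Creb5*, a related factor, had 99.7, 54.5, 65.7 and 66.6 against 11.7, 34.4, 25.3 and 20.9. All mutants were higher, with a log2 fold change of 1.17 (adjusted *P* = 0.00314). *Creb5* was detected in all 4 mutants but in only 2 wild-type kidneys, so the size of its change rests partly on undetected signals.

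The 13 tested genes known to respond to cAMP did not move one way, with 2 higher, 3 lower and 8 not called (median 0.15). The immediate-early gene *Fos* had 164, 579, 726 and 346 in *Pkd1*V/V kidneys and 91.6, 139.7, 121 and 56.6 in wild-type kidneys. All mutants were higher, with a log2 fold change of 1.86 (adjusted *P* = 0.0102), and *Egr1*, a second immediate-early gene, changed by 1.34 (adjusted *P* = 0.0293, and 0.114 without the filter on dim probes). The gluconeogenic gene *Pck1* had 70.2, 50.04, 146 and 98.7 against 919.7, 356, 440.1 and 655. All mutants were lower, with a log2 fold change of -2.49 (adjusted *P* = 0.000772), and *G6pc* changed by -2.23 (adjusted *P* = 0.000192). These gluconeogenic genes are themselves transcripts of the proximal tubule, whose 11 markers were all lower.

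**Figure D4:**
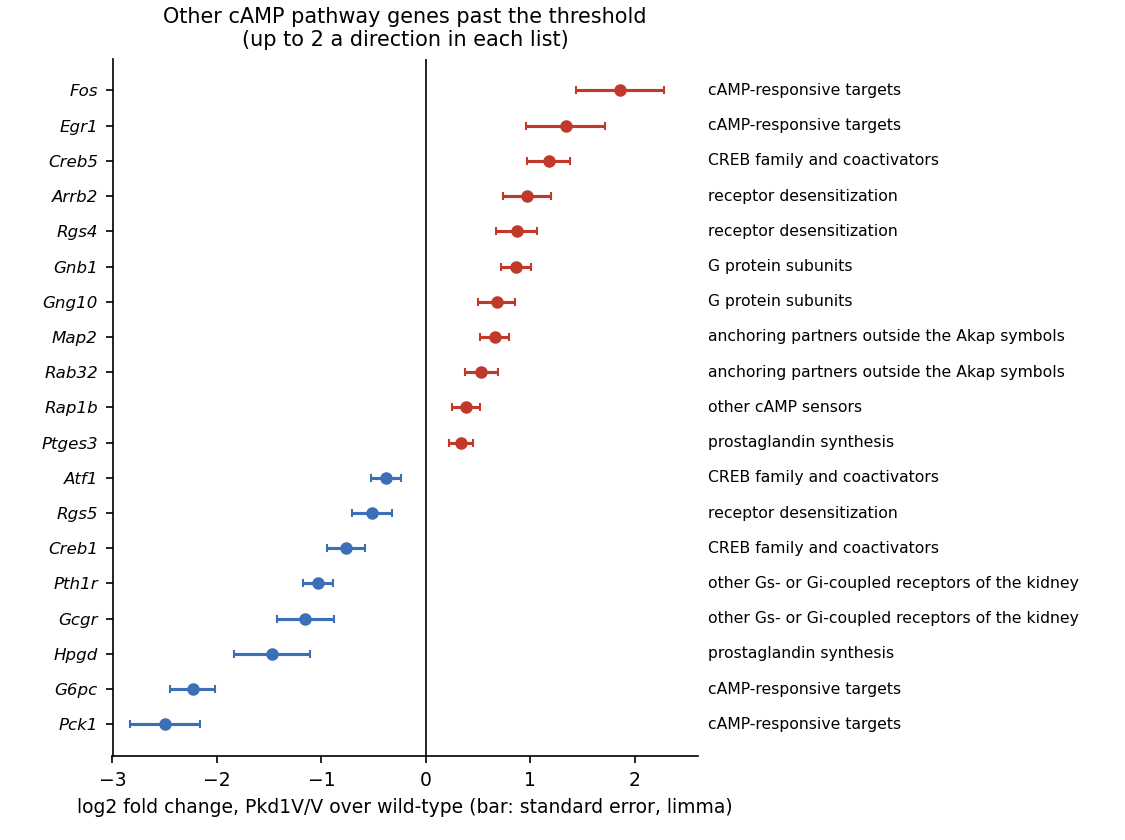
Log2 fold change (horizontal axis, *Pkd1*V/V over wild-type, bars for the standard error from limma) of up to 2 genes per direction in each list of other pathway genes, with the list at the right. All points shown passed an adjusted *P* of 0.1, red higher and blue lower, from *Fos* (1.86) to *Pck1* (-2.49). The points of *Creb1* and *Atf1* rest on signals that were not detected in the mutants. Those of *Creb5* (wild-type) and *Gcgr* (mutants) rest in part on undetected signals.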

How the data were processed

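RNA of 4 *Pkd1*V/V and 4 wild-type kidneys was hybridized to MouseRef-8 v2.0 arrays of Illumina. The array code of *Pkd1*V/V replicate 4 differs between the sample labels and the list of codes in the paper's supplement, and the labels, which match the deposited columns, were followed. The first table of the authors holds background-subtracted intensities of 25697 probes, not yet normalized, with a detection p-value, bead number and bead standard error for each probe. The second table deposited by the authors holds intensities after quantile normalization, and it was used as an alternative. Software of the first step, slide and scan date are not given in the sources used here, so that slide could not be used as a block.

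Signals were quantile-normalized, set to 0 where negative, and transformed as log2(signal + 16) in R 4.3.3. Probes with a detection p-value under 0.05 on at least 3 of 8 arrays were retained (14221), and the brightest probe stood for its gene (9833 of 16593 genes). Between 51.8% and 54.3% of probes were detected per array. The platform annotation gave 1 symbol for 23978 probes and none for 1719. Of these, 23962 were found in the gene table of GRCm38.p6, and its symbols were used for them, whether or not they differed. The genotypes were compared in limma 3.58.1 (lmFit, eBayes), which was tested on simulated data, and *P* values were adjusted over all genes by Benjamini-Hochberg. The number of arrays limits the precision. Members of a list are genes of the same kidneys and not replicates.

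Members, lists and tests were chosen with earlier results of these data known. Named in full were *Avpr2*, *Prkaca*, *Prkacb* and *Crem*, up to 3 called genes per direction and role, the brightest gene of each role not called, and up to 2 called genes per direction of each other list. The others named with values were chosen after these were seen. Alternatives were the offset (4, 64, or none with a floor of 1), cyclic loess, median scaling, no or a stricter filter, the mean of the probes, the authors' normalized table, a threshold of 0.05, an intensity trend with array weights, the replicate number as a block, each kidney left out, both kidneys with liver or adrenal transcripts left out together, and the methods' SAM, written anew with a delta of 1.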

Additional observations from a re-analysis of the deposited data

Results flagged for a closer look

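Among 78 groups of 4 kidneys (39 tested genes in 2 genotypes), 3 held a kidney set apart from the other 3 by more than Dixon's 95% critical value, where chance sets apart about 1 group in 20. *Adcy1* had a signal of 138 in wild-type replicate 3, against 101 to 106 in the other controls. *Akap10* had a signal of 51.3 in wild-type replicate 4, the kidney with liver and skeletal muscle transcripts, against 91.1 to 99.1 in the other controls. *Pde1b* had a signal of 129.9 in *Pkd1*V/V replicate 1, the kidney with the highest leukocyte sum, against 55.5 to 67.4 in the other mutants. None of these genes was called with all 8 kidneys.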

How the results depend on the processing

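*Akap12*, *Adcy6*, *Pde7a*, *Pde4d* and *Ptger3* kept their calls in all 8 fits that left out 1 kidney and in all 13 other limma settings, and *Adcy7*, *Adcy9* and *Akap1* lost theirs in several. Of the 39 tested members, 3 were higher and 5 lower. The count of lower members fell to 3 with a threshold of 0.05, with the replicate block, and without the kidneys with liver or adrenal transcripts (replicate 4 of the controls, replicate 1 of the mutants), each time with *Adcy9* and *Akap1* lost and *Adcy7* lost among the higher members. The share of all genes called fell as well, from 32.6% to 25%, 28.8% and 28% in these 3 settings. Of the members, 12.8%, 12.8% and 15.4% were called there. Leaving out 1 kidney gave 2 to 4 higher and 4 to 5 lower members, 11 to 16 higher and 9 to 12 lower genes of the other pathway lists, and 27 to 28 higher and 35 to 36 lower cell type markers. In the fits without 1 kidney, 26.1% to 30.3% of all genes were called. The replicate block left 2 higher members and 1437 higher and 1391 lower genes in all, against 1655 and 1549. The deviations of same-numbered kidneys had mixed signs (correlations of -0.22, 0.31, 0.18 and -0.25), so the numbers were not taken to pair them. Without a filter 17.6% of all genes were called, against 32.6%, *Pde4c* passed although no array detected it, and *Adcy9* and *Akap1* were lost. SAM, run without a filter, called 12 of all 61 members (19.7%: 4 higher and 8 lower, *Pde4c* and *Pde6g* among them though no array detected either) against 23.7% of all 16593 genes. Among the 39 detected members it called 4 higher and 6 lower (25.6%), with *Akap2* and *Akap7* added. The SAM share over all detected genes was not counted, so this number says nothing about an excess. Leaving out 1 kidney changed the sign of *Akap10*, *Pde1b*, *Pde4a*, *Pde8b* and *Pkia*, none of which was called. Among the members given with every kidney, changes of sign were seen for *Avpr1a* (-0.488 to 0.0648 over the 8 fits without 1 kidney, with 0.00085 without wild-type replicate 4) and for the brightest *Pkig* probe (-0.041 to 0.127 over the same fits, with -0.015 without *Pkd1*V/V replicate 2, -0.041 without wild-type replicate 3 and -0.025 without wild-type replicate 4, and -0.0022 with trend and array weights and -0.030 without those 2 kidneys), none of which was called. The causes were not tested. Trend and array weights added *Adcy4*, *Akap8l* and *Pde6h*. With 4 kidneys per genotype, and 22 of 61 members detected on fewer than 3 arrays, precision was limited.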
